A study of Homo sapiens with 3 samples.

Results

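Levels of 7 genes, TFAP2C, PTN, FABP7, ERVH48-1, ALPG, BASP1 and LGALS14, were followed through every cell of a Caco-2/HT29 co-culture. They were 7 of the 33538 genes counted, each found by its symbol in a single row of the count matrices. The set was selected on measured values of these libraries, as genes known from the placenta that were detected together in a few Caco-2 cells, so their levels and shared detection are given as a description with no test.

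Caco-2 and HT29, established lines from human colorectal carcinoma, were seeded at 9:1 into the upper chamber of Transwell inserts and harvested on day 23 for single-cell RNA sequencing of transcript 3' ends. There were 2 control libraries from untreated co-cultures (control 1 and control 2). The single treated library, LPS 1, came from a co-culture given 1 ng/ml of E. coli O111:B4 lipopolysaccharide on the apical side from day 22 for 24 hours. All 3 held the same carcinoma lines at 1 passage each, so none contained placental cells by design.

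After quality filters, 4633, 4989 and 4850 cells remained in control 1, control 2 and LPS 1, with median depths of 5459, 4103 and 3574 UMIs (unique molecular identifiers, each marking 1 captured transcript). Each cell was assigned to a line by its UMIs on the line lists of the study, which left 3967, 3994 and 3987 Caco-2-line cells and 666, 995 and 863 HT29-line cells. The number of kept cell barcodes shared between any pair of libraries was 4 to 6. Levels are in CPM, UMIs per 1000000 UMIs of the cells named, with 95% intervals that cover counting error only.

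Trophoblast is the epithelium of the placenta, and its outer layer forms when trophoblast cells fuse into a syncytium. Its program is built by transcription factors of the AP-2, GATA and TEAD families, and several of its proteins derive from retroviral envelope genes or from recently duplicated gene families. Placental and germ cell proteins are known to reappear in carcinomas, where some serve as tumour markers.

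TFAP2C (ENSG00000087510) encodes the transcription factor AP-2 gamma, which trophoblast needs, and lies at chr20:56629306-56639283 on the plus strand of GRCh38 (GENCODE v44). PTN (ENSG00000105894) encodes pleiotrophin, a secreted heparin-binding growth factor, at chr7:137227341-137343774 on the minus strand. FABP7 (ENSG00000164434) encodes the brain-type fatty acid-binding protein, a lipid chaperone of radial glia, at chr6:122779716-122784074 on the plus strand. ERVH48-1 (ENSG00000233056) encodes suppressyn, a secreted retroviral envelope fragment that blocks syncytin-1 at its receptor SLC1A5, at chr21:42916803-42925630 on the minus strand. ALPG (ENSG00000163286) encodes the germ cell alkaline phosphatase, a surface enzyme, at chr2:232406844-232410714 on the plus strand. BASP1 (ENSG00000176788) encodes a membrane-bound signal protein that also acts as a co-repressor of WT1, at chr5:17065598-17276843 on the plus strand. LGALS14 (ENSG00000006659) encodes a placental galectin, a sugar-binding protein, at chr19:39704481-39709444 on the plus strand. ALPG shares 92.5% of its aligned transcript bases with the placental alkaline phosphatase gene ALPP, and 76.4% over the last 300 bases. The split of reads between those genes was not checked. PTN and BASP1 overlap annotated genes on the opposite strand, and BASP1 also overlaps DCAF13P2 and RNU6-1003P on its own strand.

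Promoters were searched because a transcription factor, TFAP2C, is itself among the genes. The window was the 250 bases before the start in RefSeq (GRCh38.p14), the motifs were GCCNNNGGC for AP-2 and AGATAA or TGATAA for GATA factors, and both strands were read. Of the 7 genes, 5 had a window in the table. Those of PTN and FABP7, the genes most confined to a few cells, are shown with that of ALPG, the single window of the 5 with an AP-2 match (in capitals), and that of LGALS14, which was found in most Caco-2-line cells. Over all 35116 promoters in the table, 19.8% held an AP-2 match and 14.6% a GATA match.
PTN promoter, chr7:137343734-137343983, minus strand: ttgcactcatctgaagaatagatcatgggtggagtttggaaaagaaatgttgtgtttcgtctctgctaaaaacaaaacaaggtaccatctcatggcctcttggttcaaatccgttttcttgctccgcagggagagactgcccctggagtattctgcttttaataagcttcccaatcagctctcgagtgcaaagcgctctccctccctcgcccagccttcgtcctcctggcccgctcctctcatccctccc
FABP7 promoter, chr6:122779466-122779715, plus strand: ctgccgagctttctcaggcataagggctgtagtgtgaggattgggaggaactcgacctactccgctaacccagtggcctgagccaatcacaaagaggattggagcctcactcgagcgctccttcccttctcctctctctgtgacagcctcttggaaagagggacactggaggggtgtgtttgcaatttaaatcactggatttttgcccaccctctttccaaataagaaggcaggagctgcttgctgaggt
ALPG promoter, chr2:232406594-232406843, plus strand: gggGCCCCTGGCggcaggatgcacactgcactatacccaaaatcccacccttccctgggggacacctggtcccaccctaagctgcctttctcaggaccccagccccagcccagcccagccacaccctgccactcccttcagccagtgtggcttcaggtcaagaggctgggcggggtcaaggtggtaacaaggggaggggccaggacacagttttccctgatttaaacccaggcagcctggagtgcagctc
LGALS14 promoter, chr19:39704231-39704480, plus strand: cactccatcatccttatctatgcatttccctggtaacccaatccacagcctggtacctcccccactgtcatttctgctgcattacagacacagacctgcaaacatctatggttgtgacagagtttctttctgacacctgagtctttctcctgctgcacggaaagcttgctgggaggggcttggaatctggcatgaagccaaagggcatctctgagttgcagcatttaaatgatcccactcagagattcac
The ALPG match began 247 bases before the start, and LGALS14 held the single GATA match, 237 bases before its start. BASP1 held neither. A match is a run of letters and not a measured binding site.

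All 7 genes had a higher CPM in Caco-2-line than in HT29-line cells in each of the 3 libraries. TFAP2C stood at 5.78, 8.04 and 6.66 CPM in Caco-2-line cells of control 1, control 2 and LPS 1, and at 2.62, 2.35 and 1.38 CPM in HT29-line cells. The line difference of TFAP2C was 2.21, 3.42 and 4.81 fold, and in control 1 and control 2 the HT29-line values came from 11 and 10 UMIs. PTN was at 2.91, 7.44 and 0.476 CPM in Caco-2-line cells, against 0, 2 and 0 UMIs in HT29-line cells. FABP7 was at 4.38, 8.09 and 1.31 CPM, against 0, 1 and 0 UMIs. Both were highest in control 2 and lowest in LPS 1. ERVH48-1 reached 1.32, 3.23 and 0.773 CPM, and no HT29-line cell of any library held a UMI of it. A count of 0 was taken to allow 3 counts, which in the 666, 995 and 863 HT29-line cells is 0.450%, 0.302% and 0.348% of cells. ERVH48-1 was found in 0.403%, 0.776% and 0.226% of Caco-2-line cells. The limit lay below that share in control 2 alone. In LPS 1, PTN and ERVH48-1 were too low for a line difference to be detectable at this depth, since a count of 0 in HT29-line cells bounds the fold at 0.573 and 0.930.

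ALPG was at 5.82, 6.60 and 3.87 CPM in Caco-2-line cells, with 1, 0 and 1 UMIs in HT29-line cells. BASP1 was at 14.01, 30.0 and 18.2 CPM, against 0.714, 1.18 and 2.22 CPM in HT29-line cells. The LPS 1 value of BASP1 lay between those of the controls. LGALS14 was far above the rest at 1256, 1221 and 1090 CPM in Caco-2-line cells and 101, 90.8 and 147 CPM in HT29-line cells. Its line difference was 12.5, 13.4 and 7.40 fold.

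**Figure D1:**
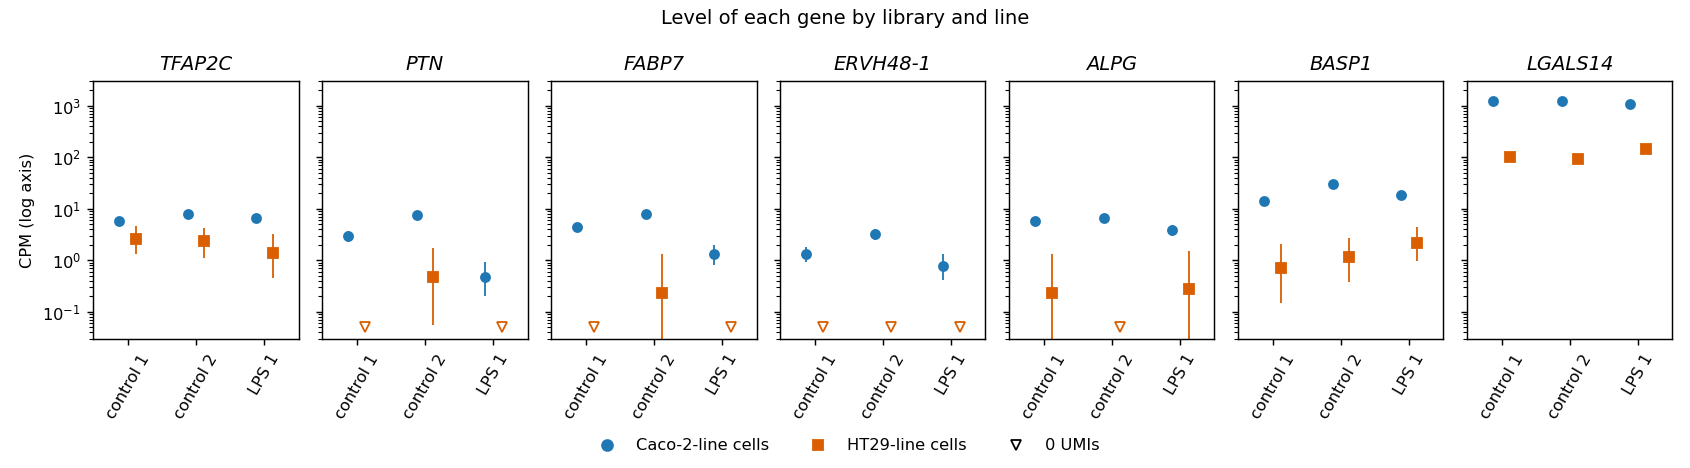
Level of each of the 7 genes in the 3 libraries (CPM, log axis), in Caco-2-line cells (circles) and HT29-line cells (squares), with exact 95% Poisson intervals, and open triangles at the foot where no UMI was counted. LGALS14 lies between 1090 and 1256 CPM in Caco-2-line cells, while the other 6 lie between 0.476 and 30.0 CPM.

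Detection per cell separated LGALS14 from the rest. A UMI of LGALS14 was found in 69.1%, 61.7% and 59.5% of Caco-2-line cells, at median depths of 5474, 4209 and 3564 UMIs, and in 12.3%, 10.7% and 14.8% of HT29-line cells, at 5397, 3758 and 3629 UMIs. LGALS14 therefore goes against the description of a gene of rare cells, and the study itself lists it among markers of enterocyte-like cells. BASP1 was detected in 4.13%, 7.19% and 5.92% of Caco-2-line cells and TFAP2C in 2.80%, 3.23% and 2.53%. In HT29-line cells, which serve here as the background, those shares were 0.450%, 0.402% and 0.811% for BASP1 and 1.502%, 1.01% and 0.579% for TFAP2C. ALPG was found in 1.11%, 1.53% and 1.00% of Caco-2-line cells. The rarest were PTN, with 20, 38 and 6 positive Caco-2-line cells, FABP7, with 19, 30 and 6, and ERVH48-1, with 16, 31 and 9.

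The few positive cells of PTN and FABP7 were strong. PTN had 3.75 and 3.95 UMIs per positive Caco-2-line cell in control 1 and control 2 and 1.33 in LPS 1, with a highest cell of 9, 15 and 3 UMIs. FABP7 had 5.95, 5.43 and 3.67, with a highest cell of 26, 23 and 10 UMIs. The 10 highest cells of each library carried 86.7% and 74.2% of the FABP7 UMIs of Caco-2-line cells in the controls and all of them in LPS 1. For BASP1 those shares were 34.9%, 22.8% and 13.7%, and for LGALS14 they were 2.83%, 3.90% and 3.25%. TFAP2C, in contrast, had 1.34, 1.26 and 1.11 UMIs per positive cell, so most cells with TFAP2C held a single UMI.

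The same cells held several of the genes. A UMI of at least 3 of the 7 was found in 32 of 3967 Caco-2-line cells of control 1 (0.807%, exact 95% interval 0.552 to 1.14), in 58 of 3994 of control 2 (1.45%, 1.10 to 1.87) and in 17 of 3987 of LPS 1 (0.426%, 0.249 to 0.682). In HT29-line cells the counts were 0, 1 and 0. Since LGALS14 is in most Caco-2-line cells, the count was also made over the other 6 genes, which gave 22, 37 and 9 Caco-2-line cells and no HT29-line cell. At least 5 of those 6 genes were found together in 10, 12 and 3 cells. The share was highest in control 2 by either count, and the interval of LPS 1 overlapped that of control 1.

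Among the 68 cells with at least 3 of the 6, 5 of control 1 and 5 of control 2 held all 6. One control 1 cell of 22134 UMIs held 5 TFAP2C, 9 PTN, 26 FABP7, 2 ERVH48-1, 21 ALPG and 11 BASP1 UMIs. A control 2 cell of 3684 UMIs, below the median depth of its library, also held all 6, with 1 TFAP2C, 5 PTN, 4 FABP7, 4 ERVH48-1, 2 ALPG and 12 BASP1 UMIs. In LPS 1 no cell held all 6, and 3 held 5 of them.

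**Figure D2:**
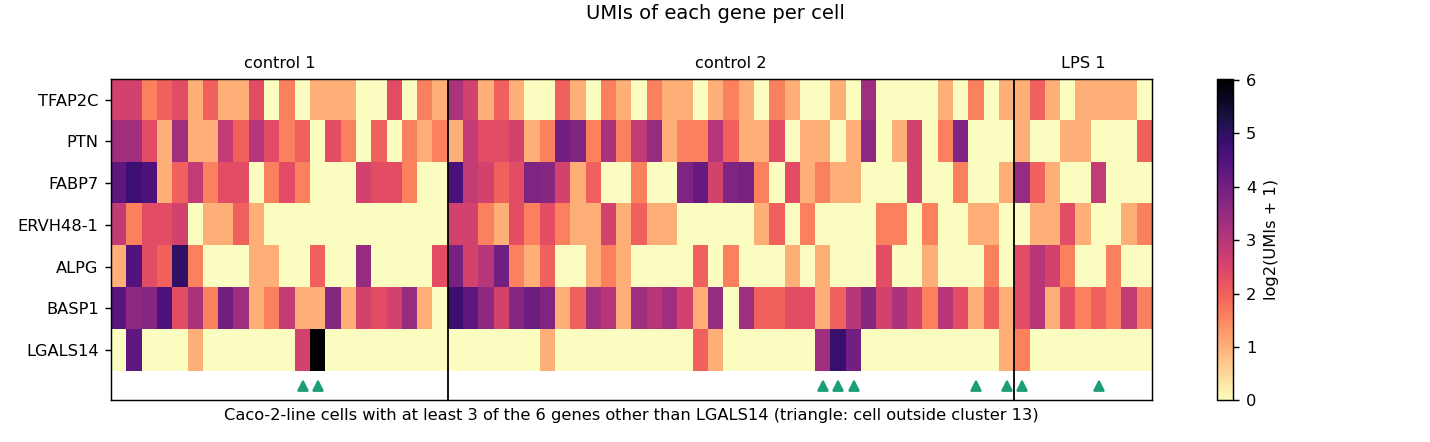
UMIs of each gene, as log2(UMIs + 1), in the 22, 37 and 9 Caco-2-line cells of control 1, control 2 and LPS 1 that held at least 3 of the 6 genes other than LGALS14. BASP1 is found in nearly every column and LGALS14 in few, and triangles mark the 9 cells outside cluster 13.

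Pairwise detection was uneven. Over the 3 libraries, 65 cells held PTN, and 37 of them (56.9%, 44.04 to 69.2) also held FABP7, against 0.132% of the cells without PTN. BASP1 was found in 58 of the 65 PTN cells (89.2%) and in 4.46% of the others. ERVH48-1 was found in 31 of the 65 (47.7%) and in 0.174% of the others. The reverse shares were small, since 8.27% of BASP1 cells and 9.84% of TFAP2C cells held PTN. PTN, FABP7 and ERVH48-1 thus lay largely inside the set of BASP1-positive cells, whereas most BASP1 and TFAP2C cells held none of the rarer genes that were looked for in pairs. LGALS14 was found less often with PTN (21.5% of PTN cells against 54.7% of cells without PTN), FABP7 (33.9% against 54.6%), ERVH48-1 (21.4% against 54.7%) and BASP1 (35.9% against 55.5%). It was found more often with TFAP2C (66.9% against 54.2%) and ALPG (68.0% against 54.4%). These shares pool both lines. LGALS14 was in 7576 of 11948 Caco-2-line cells and 316 of 2524 HT29-line cells. The Caco-2 line held 341 of the 366 TFAP2C cells and 145 of the 147 ALPG cells. It also held 64 of the 65 PTN cells, 55 of the 56 FABP7 cells, all 56 ERVH48-1 cells and 687 of the 701 BASP1 cells. Pairs were not recounted within a line, so the part of line in each share was not tested. For TFAP2C and ALPG with LGALS14, line and shared detection cannot be told apart here. The counts of cells with several genes, given above, were made within Caco-2-line cells.

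**Figure D3:**
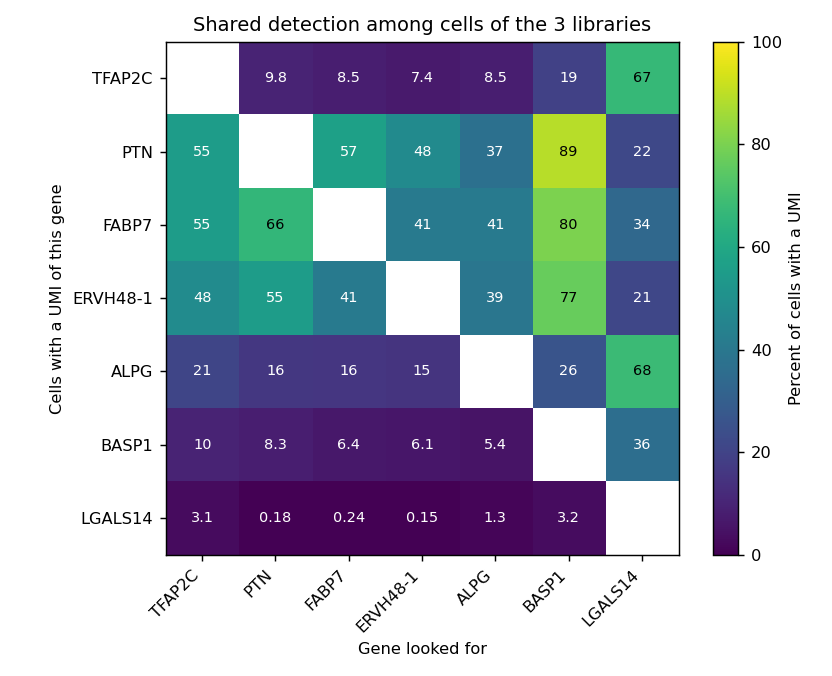
Percent of the cells with a UMI of the row gene that also had a UMI of the column gene, over the kept cells of the 3 libraries. PTN, FABP7 and ERVH48-1 rows are high in the BASP1 column (89.2%, 80.4% and 76.8%), and the LGALS14 row is at or below 3.19% throughout.

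Pearson's r across cells, on ln(1 + UMIs per 10000), gave the same picture as a description over 4633, 4989 and 4850 cells. The cells behind each value came from a single library and differed in depth. PTN with ERVH48-1 gave 0.60, 0.47 and 0.62 in control 1, control 2 and LPS 1. PTN with FABP7 gave 0.68 and 0.57 in the controls and 0.10 in LPS 1, where PTN and FABP7 each had 6 positive cells. The 6 pairs with LGALS14 lay between -0.13 and 0.04.

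Each gene was then read in Caco-2-line cells chosen by the other 6, those with at least 3 of them, against the remaining Caco-2-line cells. For 6 of the 7 the level was over 4-fold higher in all 3 libraries, where 0.889% of the 14508 genes outside the set passed the like rule for cells with at least 3 of the 7. The selection of the set rests on this contrast, so the count is a description. FABP7 was at 320.4, 357 and 151 CPM in such cells and at 0.707, 0.608 and 0.478 CPM in the rest, from 95, 151 and 14 UMIs. PTN was at 206, 267 and 28.3 CPM, with 59, 103 and 3 UMIs, against 0.628, 2.38 and 0.299 CPM. Both had lower values in LPS 1, where the PTN interval of 5.84 to 82.7 CPM lay below that of either control. With LGALS14 left out of the choice, LPS 1 held 8 such cells for FABP7 instead of 15. FABP7 was then at 511, 632 and 372 CPM, and the LPS 1 interval of 203 to 624 CPM overlapped those of both controls. Its fold was 654, 840 and 780, with LPS 1 between the controls. PTN was then at 326, 438 and 67.9 CPM, with the LPS 1 interval still below that of either control.

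With cells again chosen by all of the other genes, LGALS14 included, BASP1 reached 509, 765 and 671 CPM against 9.67, 20.3 and 17.2 CPM. ALPG reached 265, 159 and 214 CPM against 3.29, 3.79 and 2.81 CPM. ERVH48-1 reached 84.2, 112 and 68.1 CPM against 0.275, 1.06 and 0.359 CPM. TFAP2C reached 139.7, 121 and 111 CPM against 4.58, 6.25 and 6.32 CPM. For these 4 genes the intervals of LPS 1 overlapped those of at least 1 control. LGALS14 was lower in such cells, at 384, 214 and 43.3 CPM against 1264, 1235 and 1093 CPM, and was found in 4 of 22, 7 of 37 and 1 of 9 of them.

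Cells were clustered with the 7 genes and the placental lists left out of the features, which gave 13 clusters. Cluster 13, of 69 cells (22, 40 and 7 in control 1, control 2 and LPS 1), held 59 of the 68 cells with at least 3 of the 6 genes. Its leading genes by fold were XAGE2, XAGE3, FLT1, IGFBP3 and MYLPF, of which XAGE2 and XAGE3 were not among the clustering features. It held 1 HT29-line cell, and none of the intestinal marker lists named it, so it is called by its number. TFAP2C, PTN, FABP7, ERVH48-1, ALPG and BASP1 all had their highest CPM in cluster 13 in each of the 3 libraries. Clusters of these cells share the genes that chose the set, so no test was made.

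PTN stood at 354, 538 and 186 CPM in cluster 13, and in no other cluster did its mean over the 3 libraries pass 1.59 CPM. FABP7 stood at 546, 580.1 and 148 CPM, with a next highest mean of 1.48 CPM in cluster 3. ERVH48-1 stood at 136, 224 and 371 CPM, with a next highest mean of 0.858 CPM in cluster 8. Cluster 13 held 92.3% of all PTN UMIs, 88.6% of FABP7 and 85.7% of ERVH48-1 UMIs. PTN, FABP7 and ERVH48-1 thus lay mostly in 69 cells, except that in LPS 1 cluster 13 held 18.2% of the FABP7 UMIs.

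BASP1 stood at 768, 952 and 891 CPM and was found in 64 of the 69 cells, followed by cluster 12 at 68.3, 52.4 and 90.4 CPM and the enteroendocrine-like cluster 11 at 62.3, 24.4 and 19.9 CPM. The ranges of clusters 12 and 11 overlapped. ALPG stood at 389, 243 and 594 CPM, followed by cluster 8 at 3.66, 24.0 and 12.2 CPM. TFAP2C stood at 202, 182 and 259.9 CPM, followed by cluster 8 at 10.97, 11.99 and 23.0 CPM and cluster 3 at 10.5, 7.54 and 11.7 CPM. Only 21.2% of TFAP2C UMIs, 33.2% of BASP1 UMIs and 44.9% of ALPG UMIs lay in cluster 13, so most of the RNA of TFAP2C, BASP1 and ALPG came from other cells.

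LGALS14 had the opposite order. It stood at 3477, 4306 and 3423 CPM in the enterocyte-like cluster 4, where it was found in 99.2%, 98.4% and 96.7% of cells. Cluster 6, led by S100A9 and GNRH2, followed at 1975, 1733 and 1696 CPM, with no overlap between those clusters. Cluster 13 was the lowest of the 13 by the mean, with 22, 8 and 0 UMIs of LGALS14. The stem-like cluster 1 and the undifferentiated HT29 cluster 2 were also low, at 139, 113 and 97.8 CPM and at 132, 72.7 and 139 CPM, and their values overlapped.

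**Figure D4:**
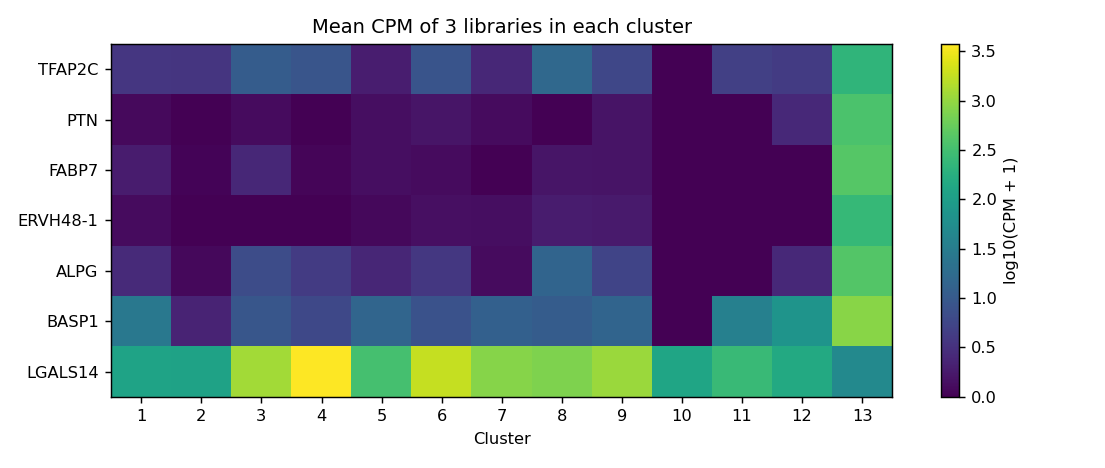
Mean CPM over the 3 libraries of each gene in the 13 clusters, as log10(CPM + 1). Cluster 13 is the brightest column for 6 genes, and LGALS14 is brightest in cluster 4 and darkest in cluster 13.

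Cells with several of the genes were deeper than others. Those with at least 3 of the 7 had a median of 7146 UMIs, against 4369 UMIs in the other Caco-2-line cells outside cluster 13, with 4.81% against 4.21% mitochondrial UMIs. By library the mitochondrial medians were 4.20%, 6.29% and 4.35% against 3.73%, 4.38% and 4.64%. Cells of cluster 13 had 4.77%, 8.72% and 4.44%. The median doublet score of cells with at least 3 of the 7 was 0.0826 against 0.0693, and of the 296, 318 and 310 cells removed for a high score 2, 3 and 1 held at least 3 of the 7. With every cell thinned to the UMI minimum of control 1 and shallower cells left out, the share with at least 3 of the 7 was 0.600% ± 0.385 (SD, n = 2 controls) against 1.13% ± 0.456 unthinned. Beyond that thinning, the part of depth and doublets in the shared detection was not tested.

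The genes most like each member were ranked by the lowest r over the 3 libraries among 14863 genes. GATA3, a trophoblast and luminal epithelial transcription factor, was among the nearest 3 for TFAP2C, PTN, FABP7, ERVH48-1 and ALPG, with a lowest r of 0.09, 0.18, 0.15, 0.22 and 0.12. LRP2, the endocytic receptor megalin, was among the nearest 3 for PTN, ERVH48-1 and BASP1 (0.19, 0.21 and 0.15). TFAP2C was nearest to the glucose transporter gene SLC2A3 (0.14), FABP7 to VGLL1 (0.20), ALPG to PTGES (0.13) and BASP1 to CADM1 (0.18). These values are weak and come from sparse counts. LGALS14 was nearest to APOC3, APOA4 and FABP1, genes of lipid absorption, with a lowest r of 0.65, 0.64 and 0.63.

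Other placental genes were read in the same cells. Of 83 listed genes, 82 were in the matrices and 40 had at least 50 UMIs in the row read. IGF2 was read in an empty duplicate row, so it is not among the 40. In cells with at least 3 of the 7, 13 of the 40 (32.5%) were over 4-fold higher in each library than in other Caco-2-line cells. The share of all genes outside the set was 0.889%. Some of these genes are in the study's own signature of a cell group from these libraries, so the count is not independent of the choice. Trophoblast transcription factors gave 5 of 13, GATA2, GATA3, DLX3, VGLL1 and SP6. GATA3 was at 539.6, 488 and 389 CPM against 16.9, 22.4 and 22.1 CPM. SP6 was at 203, 210.5 and 92.6 CPM against 11.4, 12.2 and 13.1 CPM. Of cells with at least 3 of the 7, 20 of 32, 34 of 59 (1 of them HT29-line) and 7 of 17 lay in cluster 13. With cells chosen by at least 3 of the 6 genes without LGALS14, the GATA3 fold was 41.5, 32.4 and 39.1, against 31.9, 21.8 and 17.6 by the 7. The SP6 fold was then 23.3, 24.8 and 16.6, still lowest in LPS 1, as were those of PAGE4 and STS, described below.

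Steroid enzymes gave 2 of 4, HSD17B1, which makes estradiol, at 84.2, 62.4 and 37.0 CPM against 3.89, 3.70 and 4.25 CPM, and STS, the steroid sulfatase, at 78.0, 90.2 and 9.26 CPM against 1.65, 1.78 and 2.15 CPM. The LPS 1 value of STS was a single UMI. Secreted and surface genes gave 6 of 18, PAGE4, XAGE2, XAGE3, KRT7, KRT23 and ALPP. PAGE4, a cancer and placenta antigen, was at 471, 708 and 231 CPM against 10.8, 17.5 and 14.4 CPM. KRT7, the keratin used to mark trophoblast, was at 43.7, 25.4 and 27.8 CPM against 0.589, 0.913 and 0.479 CPM. ALPP was at 21.8, 37.0 and 18.5 CPM against 0.786, 0.963 and 0.838 CPM. Several LPS 1 values rest on few UMIs, with 2 each for ALPP, VGLL1, DLX3 and KRT23, 3 for KRT7 and 4 for HSD17B1. GATA3 and PAGE4 had 42 and 25. ALPG helped choose the cells, and its split of reads with ALPP was not checked, so ALPP is not taken as a separate reading.

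Hormone and envelope genes could rarely be compared. Of 26 hormone and growth regulator genes, which include the chorionic gonadotropin and pregnancy-specific glycoprotein genes, 3 had 50 UMIs in the row read. None of the 3 was over 4-fold. IGF2 was not compared, though another row of it stood at 23.2, 21.8 and 20.3 CPM over all kept cells of control 1, control 2 and LPS 1. Of 6 retroviral envelope genes, 2 had 50 UMIs and none passed. The minimum of 50 UMIs leaves out genes found mainly in these few cells and also genes that were not, and some of each are named after their values were seen. The hormone genes CGA, CGB3, CGB5, CGB8, CSH1 and CSH2 had 0 UMIs over all kept cells. In cells with at least 3 of the 7, ELF5 had 0 of its 34 UMIs, ADAM12 0 of 26 and CGB7 1 of 23. The syncytin-1 gene ERVW-1 had 13 of its 22 UMIs in cells with at least 3 of the 7, the syncytin-2 gene ERVFRD-1 had 12 of 19, and the steroid side-chain cleavage gene CYP11A1 had 29 of 35. With cells chosen by at least 3 of the 6 genes without LGALS14, 17 of the 40 passed (42.5%), beside 210 of the 14508 genes outside the set (1.45%), adding TEAD4, MSX2, ISM2 and NOTUM, which are named after their values were seen. Among known partners of the 7 genes, none of 5 AP-2 family genes, 8 pleiotrophin family and receptor genes, 5 fatty acid-binding protein genes, 3 suppressyn and syncytin receptor genes, 3 BASP1-like genes or 9 galectin genes passed, and of 2 alkaline phosphatase genes ALPP passed. No gene of the 6 intestinal marker lists passed.

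The LPS library was compared with the controls on UMIs summed over all kept cells. Of 16135 genes tested, 17 differed at an adjusted p under 0.05 (0.105%), 11 higher and 6 lower with LPS, and the lower ones were 0.0372% of those tested. PTN and FABP7 were among the 6 lower ones, and the other 5 genes did not pass. This fit has 1 residual degree of freedom and takes the single LPS library to vary as the controls do.

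PTN was at 2.502 and 6.23 CPM in the controls and at 0.392 CPM in LPS 1, from 75, 152 and 8 UMIs. LPS 1 lay below both controls, which themselves differed. The log2 fold change was -3.51 (SE 0.572, adjusted p = 0.00794, edgeR quasi-likelihood test). FABP7 was at 3.77 and 6.72 CPM in the controls and at 1.08 CPM in LPS 1, from 113, 164 and 22 UMIs, with a log2 fold change of -2.34 (SE 0.390, adjusted p = 0.00938, edgeR). Both calls were lost without removal of cells by doublet score (adjusted p = 0.0633 for each), and FABP7 was lost in DESeq2 (adjusted p = 0.0691).

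ERVH48-1 was at 1.13, 2.66 and 0.636 CPM and ALPG at 5.04, 5.45 and 3.23 CPM, with log2 fold changes of -1.62 (SE 0.549) and -0.78 (SE 0.267) and an adjusted p of 0.956 for each in edgeR. LPS 1 was the lowest library for ERVH48-1 and ALPG. TFAP2C was at 5.34, 7.05 and 5.73 CPM and BASP1 at 12.1, 25.0 and 15.4 CPM, where LPS 1 lay between the controls. LGALS14 was at 1094, 1025 and 924 CPM, with a log2 fold change of -0.28 (SE 0.176, adjusted p = 0.956, edgeR). Within clusters 11 and 10, enteroendocrine-like and goblet-like, LGALS14 instead read 29.1, 167 and 596 CPM and 18.1, 96.1 and 258 CPM, highest in LPS 1, with controls that differed over 5-fold.

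The number of cluster 13 cells moved with these values, at 22 and 40 in the controls and 7 in LPS 1. Without the cells of cluster 13, which was tried once these values were known, the log2 fold change of PTN was -0.99 (adjusted p = 0.969) and that of FABP7 was 1.46 (adjusted p = 0.957), from edgeR. In LPS 1 cluster 13 held 5 of the 8 PTN UMIs and 4 of the 22 FABP7 UMIs. Most other FABP7 UMIs of LPS 1 lay in a cluster 3 cell with 10 and a cluster 1 cell with 6. Inside cluster 13, PTN and FABP7 had a lower CPM in LPS 1 than in the controls, whereas ERVH48-1, ALPG and TFAP2C were highest in LPS 1, all from 16 or fewer UMIs. A sum over a library cannot separate fewer cells from less RNA per cell, and with 7 cells of 1 LPS library the split was not tested.

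**Figure D5:**
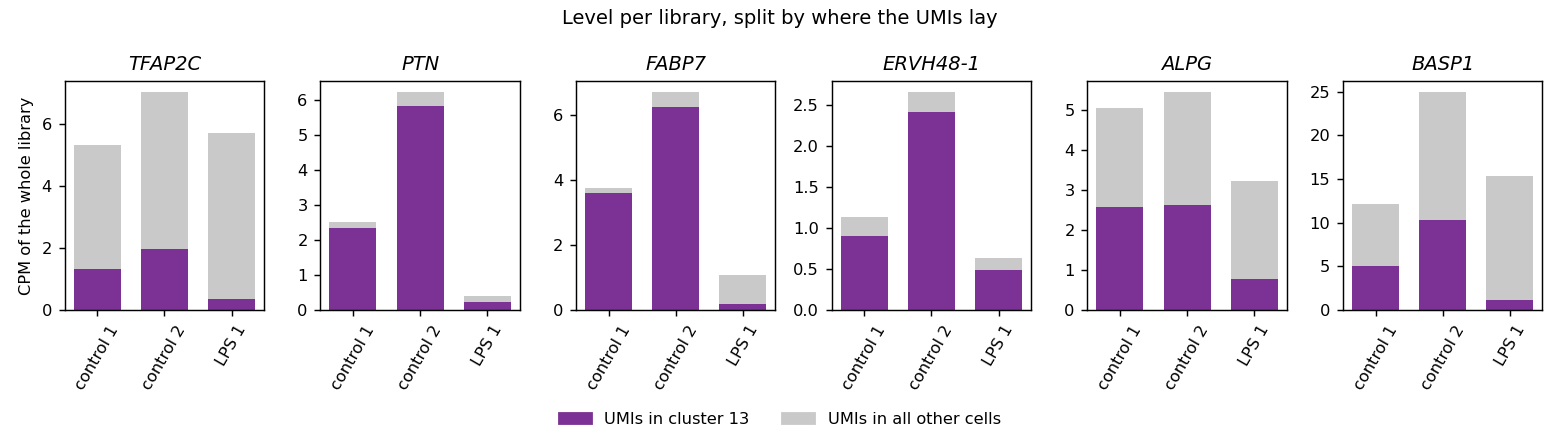
CPM of each of 6 genes in the whole library, split into UMIs from cluster 13 cells (dark) and from all other cells (grey). The dark part is the larger one for PTN, FABP7 and ERVH48-1 in both controls, and it is smaller in LPS 1 than in either control for all 6 genes.

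Of the placental list genes tested, XAGE3, at 2.40, 3.89 and 0.587 CPM (log2 fold change -2.48, SE 0.464, adjusted p = 0.0305, edgeR), was the single one that passed. The median log2 fold change was -0.88 over 4 retroviral envelope genes, -0.53 over 6 steroid enzymes, -0.20 over 5 hormone and growth regulator genes, -0.16 over 15 trophoblast transcription factors and -0.12 over 18 secreted and surface genes, beside 0.01 over all 16135 genes. All 5 medians were below that of all genes, which was not particular to the placental lists. Most other lists were below the median of all genes too, such as the stem-like (-0.36), enteroendocrine-like (-0.38) and fatty acid-binding protein lists (-0.35). The pleiotrophin family, BASP1-like and goblet-like lists were above it (0.11, 0.09 and 0.24). The envelope median includes ERVW-1 and ERVFRD-1, each at 0.098 CPM in LPS 1. None of the 7 partner lists held a gene that passed.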

How the data were processed

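The 3 deposited UMI count matrices were used, 1 per library. The authors made the counts with Cell Ranger on GRCh38; the matrices hold raw counts, 33538 genes by 5811, 6495 and 6838 barcodes in control 1, control 2 and LPS 1, with 33893707, 27934953 and 24185467 UMIs. Counting by strand is not given in the sources used here. Cells were kept at the study's minimums (2250 UMIs and 770 genes in control 1, 1500 and 700 in control 2, and, by choice here, in LPS 1) and at most 20% mitochondrial UMIs. By its own threshold Scrublet called 0, 0 and 1 doublets, and the 6% of cells with the highest scores were removed instead. Lines were split at the Otsu threshold of the log2 ratio of UMIs on the study's HT29 and Caco-2 lists, and 39, 66 and 98 cells lay within 0.1 of it. Clusters came from SCTransform and anchor integration (Seurat 5.3.0; 3000 features, 50 principal components, 15 neighbours, Leiden 0.5, scanpy 1.11.5). A cluster name needed 3 raised markers and, a rule added after seeing the data, 1 among its top 10 genes.

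LPS was compared with control on library sums by edgeR 4.0.16 (quasi-likelihood, TMM, filterByExpr, Benjamini-Hochberg over all genes tested), which was tested on simulated data. Alternatives were DESeq2 1.42.0 and its size factors, no filter, other cells or minimums, and each control left out. Intervals are exact binomial or Poisson, and cover counting error only. Named genes were the 7 members, the 3 genes most like each, and list genes over 4-fold in all libraries or past the test. Members and lists were chosen with earlier results of these data known.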

Additional observations from a re-analysis of the deposited data

How the results depend on the processing

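Results that held in every alternative run were the count of 7 genes higher in Caco-2-line cells and the count of 6 genes highest in cluster 13. The count of genes over 4-fold in cells chosen by the others stayed at 6 except with at least 2 others (5, TFAP2C lost) and with thinned cells (5, PTN lost). The share of Caco-2-line cells with several genes, 1.13% over the controls, was 5.56% at 2 or more genes, 0.527% at 4 or more and 0.600% with cells thinned, and 0.807% to 1.45% with 1 control left out. The 17 genes called between LPS and control became 46 with no filter on low counts, 11 with no cells removed by doublet score and 6 in DESeq2. Causes were not tested. Leaving out control 1 or control 2 gave log2 fold changes of -3.76 and -2.56 for PTN and of -2.60 and -1.85 for FABP7, with no test, since no residual degree of freedom was left. The direction turned for BASP1, from -0.33 to 0.22 without control 2 (-0.75 without control 1), and without cluster 13 for BASP1 (0.31), TFAP2C (-0.18 to 0.16) and FABP7 (-2.34 to 1.46), and ERVH48-1 then fell below the filter. No paired analysis was possible because the groups share a single replicate number. A single LPS library, 7 cells of cluster 13 in it and its lower depth limit every statement on LPS.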
